A study of Homo sapiens with 6 samples.

Results

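ERK feedback genes are genes that the ERK pathway turns on and whose products hold it back or carry its output, and 10 of them were examined in PC-3 tumors. They are DUSP1, DUSP4, DUSP5, DUSP6, SPRY2, SPRY4, SPRED1, SPRED2, ETV4 and ETV5. Their rows were found by symbol among the 24000 entries of the deposited table, where each symbol stood on 1 row and no other entry overlapped its locus. PC-3 cells, an established line of human prostate cancer that needs no androgens, were grown here as xenografts in nude mice, which lack mature T cells but keep myeloid cells. The tumors of the vehicle group came from mice given the carrier alone. The tumors of the WCE group came from mice given a standardized extract of the herb Wedelia chinensis, rich in luteolin, apigenin and wedelolactone. Each group had 3 tumors, the sample labels give 10 weeks of treatment for both and no dose, and the question was which tumor transcripts differed under WCE.

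Growth factor receptors pass a signal through RAS, RAF and MEK to the kinase ERK, which enters the nucleus and switches on transcription. Part of what it switches on shuts it down again. DUSP phosphatases remove the phosphates that activate ERK, Sprouty (SPRY) and SPRED proteins block the steps around RAS and RAF, and the ETS factors ETV4 and ETV5 carry the signal on to further genes. Because their transcripts follow ERK activity, these genes are widely read as a gauge of it in tumors, although the transcripts measure neither phosphorylation nor protein.

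Levels are given in FPKM, fragments per kilobase of transcript scaled to library size, which allows genes of different length to be compared. The depth of each library is known only relative to the others, and ran from 25.0% in WCE replicate 1 to 85.2% in WCE replicate 2, with vehicle replicate 3 set to 100%. WCE replicate 1 and vehicle replicate 3 were nearly the same library in content. Across 1915 abundant entries their median absolute log2 difference was 0.0276, while the other 14 pairs of tumors lay between 0.095 and 0.247, and 0 entries seen in WCE replicate 1 were missing from vehicle replicate 3. For the feedback genes the log2 ratio of their FPKM values lay between −0.10 for SPRED1 and 0.056 for SPRY2. The labels put them in different groups, so they were kept as labeled. Counts for the pathway lists and the endothelial markers, and the changes of DUSP6, SPRY4 and some other genes, are also given without both. Nothing in the labels says more on the origin of replicates than that they are individual tumors.

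A lower DUSP6 and a higher SPRY4 in WCE-treated tumors were the largest differences among the 10 genes, in opposite directions, and the other 8 genes had log2 changes between −0.04 and 0.16. DUSP6, the cytoplasmic phosphatase specific for ERK, averaged 105 ± 10.2 FPKM under vehicle and 87.5 ± 5.49 FPKM under WCE (SD, n = 3 each). SPRY4, an inhibitor of signaling from receptors to RAS and RAF, averaged 49.9 ± 5.07 FPKM under vehicle and 65.3 ± 13.9 FPKM under WCE (SD, n = 3 each). Neither difference passed the adjustment for the number of entries tested. In bulk tumors, fewer cells of a type and less RNA per cell cannot be told apart.

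The test was limma on log2(FPKM + 1), so a log2 change is on that scale, fitted over the 13287 entries with a mean of at least 0.5 FPKM, and all 10 genes passed this filter. Adjusted p-values are by Benjamini-Hochberg over all entries. By limma 0 of the 10 passed at an adjusted p under 0.05 (lowest 0.623), where 1 of 13287 entries did, or 0.00753%. At an unadjusted p under 0.05, 1 of 10 genes was called, DUSP6, in the lower direction, beside 3.33% of all entries called lower and 3.78% called higher. The groups overlapped in each of the 10 genes, whereas they did not overlap in 12.8% of entries, 6.37% with WCE higher and 6.4% with WCE lower. The median log2 change of the 10 genes was 0.11, with 7 above 0 and 3 below, beside a median of −0.0063 over all entries, of which 48.6% were above 0. Of the 3 below 0, DUSP4 and DUSP5 came out above 0 under quantile normalization (0.044 and 0.0069), DUSP4 also under median-ratio and upper-quartile scaling (5.9e-05 and 0.0091), and DUSP6 stayed below 0 under each scaling tried. The 95% confidence intervals of the 10 log2 changes reached from −0.51 for DUSP6 to 0.75 for SPRY4, so a change of 1 log2 unit lay outside each of them.

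**Figure D1:**
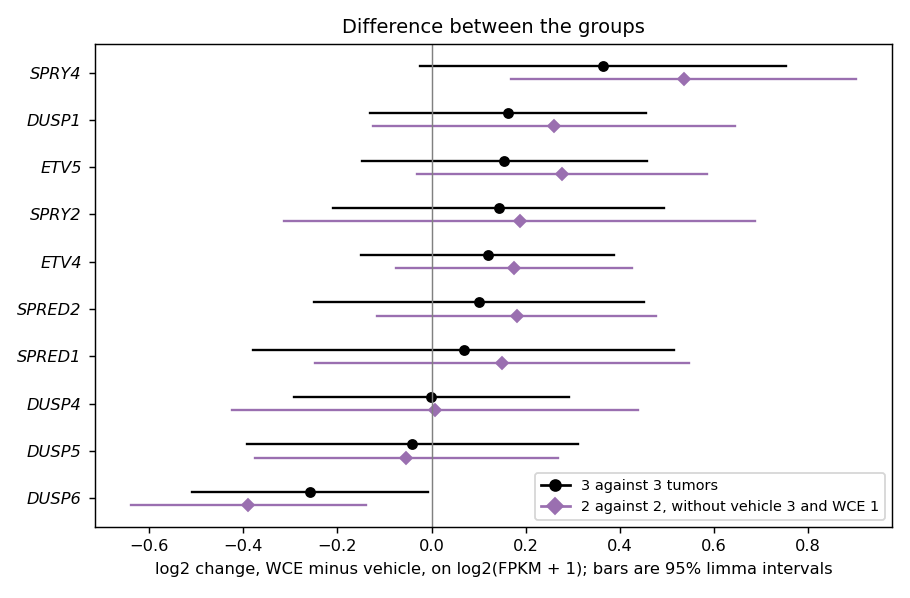
Log2 change of each feedback gene, WCE-treated minus vehicle-treated tumors, on log2(FPKM + 1), with 95% intervals by limma; circles use 3 tumors per group and diamonds 2 per group, without vehicle replicate 3 and WCE replicate 1. With 3 per group the interval of DUSP6 alone lies wholly on one side of 0, from −0.51 to −0.0074, and with 2 per group those of DUSP6 and SPRY4 do.

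The 10 genes were well expressed in every tumor. Their mean FPKM over the 6 tumors ran from 96.3 for DUSP6 to 18.0 for SPRED1, which placed them between the 92.8 and the 63.9 percentile of entries tested. The order by mean was DUSP6, DUSP5 (73.2 FPKM), DUSP4 (66.7 FPKM), SPRY4 (57.6 FPKM), ETV4 (53.1 FPKM), SPRY2 (27.8 FPKM), ETV5 (24.1 FPKM), DUSP1 (19.4 FPKM), SPRED2 (19.2 FPKM) and SPRED1. Several neighbours in this order were not separated: DUSP1 exceeded SPRED2 in 3 of 6 tumors, DUSP5 exceeded DUSP4 in 4 of 6, and DUSP6 exceeded DUSP5 in 5 of 6. ETV4 exceeded SPRY2, SPRY2 exceeded ETV5 and ETV5 exceeded DUSP1 in 6 of 6 tumors.

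**Figure D2:**
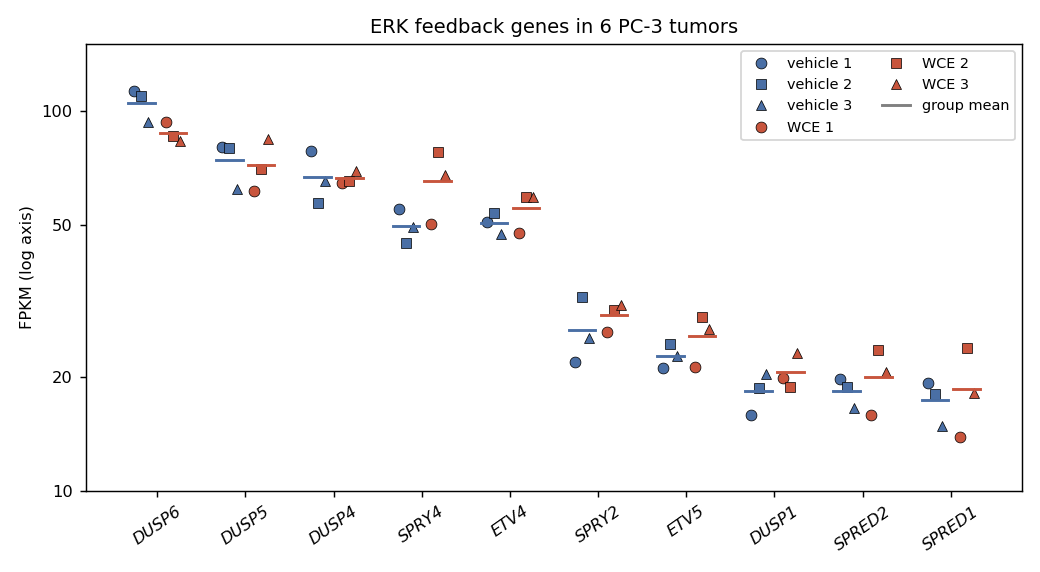
FPKM (log axis) of the 10 feedback genes in each tumor, ordered by mean level; blue marks are vehicle-treated and red marks WCE-treated tumors, the marker shape gives the replicate number, and horizontal lines are group means. The genes span from 13.9 FPKM (SPRED1 in WCE replicate 1) to 113 FPKM (DUSP6 in vehicle replicate 1), and the groups overlap in every gene.

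Among the phosphatases, DUSP6 (chromosome 12, 89741837 to 89746296 in the table, for which the submitters' notes name hg19 as the human build) was at 113, 109 and 93.4 FPKM in vehicle replicates 1 to 3 and at 93.7, 85.8 and 83.1 FPKM in WCE replicates 1 to 3. WCE replicates 2 and 3 were the lowest tumors, and the overlap of the groups came from WCE replicate 1 standing just above vehicle replicate 3, its near copy. The log2 change was −0.26 ± 0.11 (standard error) with an unadjusted p of 0.0450 and an adjusted p of 0.623 by limma, and the exact permutation test over the 6 tumors, two-sided with a smallest possible p of 0.1, gave p = 0.2. Without the near copies the log2 change was −0.39 (95% interval −0.64 to −0.14, unadjusted p = 0.0100 and adjusted p = 0.195 by limma). The call at an unadjusted p under 0.05 was lost when any tumor other than vehicle replicate 3 and WCE replicate 1 was left out alone, with p from 0.106 to 0.140 by limma.

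Promoter sequences from RefSeq (GRCh38.p14, 250 bases before to 50 after a start site) were matched for 6 of the 10 genes, in 9 windows. DUSP6 and SPRY4 are shown because they differed most between the groups and in opposite directions, and DUSP1 because its window alone held a full cyclic AMP response element, the binding site of CREB. Capitals mark TGACGTCA, this element, and its half-site TGACG, searched on both strands, so a full element also counts as a half-site on each strand.
DUSP6, chr12:89352452-89352751, minus strand: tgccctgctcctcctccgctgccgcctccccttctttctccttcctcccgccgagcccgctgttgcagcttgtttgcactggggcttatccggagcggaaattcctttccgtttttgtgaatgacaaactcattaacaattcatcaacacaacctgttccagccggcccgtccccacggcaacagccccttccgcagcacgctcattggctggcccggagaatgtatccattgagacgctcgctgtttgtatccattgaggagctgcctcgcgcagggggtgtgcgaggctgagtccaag
SPRY4, chr5:142324198-142324497, minus strand: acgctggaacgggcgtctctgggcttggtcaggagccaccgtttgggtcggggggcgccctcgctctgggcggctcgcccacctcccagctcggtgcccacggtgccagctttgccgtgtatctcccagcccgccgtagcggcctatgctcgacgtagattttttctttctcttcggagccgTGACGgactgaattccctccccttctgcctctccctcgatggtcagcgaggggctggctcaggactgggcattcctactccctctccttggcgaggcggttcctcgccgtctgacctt
DUSP1, chr5:172771146-172771445, minus strand: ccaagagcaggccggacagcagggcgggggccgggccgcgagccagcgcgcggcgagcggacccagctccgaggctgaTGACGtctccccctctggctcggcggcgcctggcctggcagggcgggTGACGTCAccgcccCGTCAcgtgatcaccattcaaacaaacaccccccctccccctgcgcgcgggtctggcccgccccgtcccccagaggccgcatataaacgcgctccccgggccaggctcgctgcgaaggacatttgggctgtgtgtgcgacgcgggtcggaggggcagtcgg
The full element stood 125 bases before the start site of DUSP1, and it is held by 1.85% of the 35116 promoter windows. Half-sites stood 172 and 111 bases before the start site of DUSP1 and 68 bases before that of SPRY4, with none in the DUSP6 window. The half-site occurs in 24.6% of all windows and in 4 of the 9 windows of feedback genes. An ETS site (CCGGAAG, in 10.3% of all windows) and the CArG box bound by serum response factor (in 1.29%) were in 0 of the 9, and an AP-1 site (TGANTCA, in 7.71%) was in 1, a window of SPRED2. Such matches describe letters in these windows and no binding was measured.

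DUSP5, the nuclear phosphatase specific for ERK (chromosome 10, 112257625 to 112271302), was at 80.2, 79.8 and 62.4 FPKM in vehicle-treated tumors and at 61.7, 70.2 and 84.6 FPKM in WCE-treated tumors. Each group held both high and low tumors, and the log2 change was −0.04 (standard error 0.15). DUSP4, a nuclear phosphatase of ERK and other MAP kinases (chromosome 8, 29190579 to 29208267), was at 78.3, 57.4 and 65.3 FPKM against 64.6, 65.3 and 69.5 FPKM. The WCE-treated tumors all lay inside the range of the vehicle-treated ones, and the log2 change was −0.00087 with a 95% interval from −0.29 to 0.29. DUSP1, an immediate early phosphatase that also acts on p38 and JNK (chromosome 5, 172195093 to 172198203), was at 15.9, 18.7 and 20.3 FPKM against 19.8, 18.8 and 23.1 FPKM. Its lowest tumor was vehicle replicate 1 and its highest WCE replicate 3, with a log2 change of 0.16 (unadjusted p = 0.235 by limma).

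Of the Sprouty genes, SPRY4 (chromosome 5, 141689992 to 141704620) was at 55.1, 45.0 and 49.5 FPKM in vehicle replicates 1 to 3 and at 50.3, 77.8 and 67.9 FPKM in WCE replicates 1 to 3. WCE replicates 2 and 3 stood above the other 4 tumors, and WCE replicate 1 lay within the vehicle range. The log2 change was 0.36 ± 0.17 (standard error) with an unadjusted p of 0.0626 and an adjusted p of 0.623 by limma, and the exact permutation p was 0.2. Without vehicle replicate 3 and WCE replicate 1 it was 0.54 (95% interval 0.17 to 0.90, unadjusted p = 0.0129 and adjusted p = 0.200 by limma). SPRY2, which acts at the same steps (chromosome 13, 80910112 to 80915086), was at 21.8, 32.4 and 25.2 FPKM against 26.2, 29.9 and 30.9 FPKM. Its vehicle-treated tumors spread more widely than its WCE-treated ones and enclosed them, with a log2 change of 0.14 and a 95% interval from −0.21 to 0.49.

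SPRED1 and SPRED2, which bring neurofibromin to the membrane to switch RAS off, varied most closely with each other. SPRED1 (chromosome 15, 38545052 to 38649450) was at 19.2, 18.0 and 14.8 FPKM in vehicle-treated tumors and 13.9, 23.8 and 18.1 FPKM in those given WCE. SPRED2 (chromosome 2, 65537985 to 65659656) was at 19.8, 18.8 and 16.6 FPKM against 15.9, 23.4 and 20.6 FPKM. Both were lowest in WCE replicate 1 and next lowest in vehicle replicate 3, and both were highest in WCE replicate 2. The log2 changes were 0.07 and 0.10, smaller than their standard errors of 0.19 and 0.15.

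The ETS factors ETV4 and ETV5 also varied together. ETV4 (chromosome 17, 41605211 to 41623762) was at 51.0, 53.9 and 47.6 FPKM in vehicle-treated tumors and 47.8, 59.2 and 59.4 FPKM in those given WCE. ETV5 (chromosome 3, 185764106 to 185826901) was at 21.0, 24.4 and 22.6 FPKM against 21.2, 28.7 and 26.7 FPKM. In both genes WCE replicates 2 and 3 were the highest tumors and WCE replicate 1 lay at the lower end of the vehicle range. The log2 changes were 0.12 (unadjusted p = 0.333 by limma) and 0.15 (unadjusted p = 0.271 by limma).

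Within the tumors the feedback genes did not move as 1 block. By the root mean square difference of their deviations from each gene's mean over the 6 tumors, the nearest pairs were ETV4 with ETV5, at 0.0705 on the log2 scale, and SPRED1 with SPRED2, at 0.0766. SPRY2 was nearest to ETV5 (0.123), DUSP5 to ETV4 (0.134), DUSP1 to SPRY2 (0.16) and SPRY4 to SPRED2 (0.162). DUSP4 was nearest to ETV4 (0.186). DUSP6 stood farthest from any other member, its nearest being DUSP4 at 0.202.
The ratio of SPRY4 to DUSP6 within a tumor, picked after the values were seen and given without a test, was 0.49, 0.412 and 0.53 in vehicle replicates 1 to 3 and 0.537, 0.907 and 0.817 in WCE replicates 1 to 3. WCE replicates 2 and 3 stood apart from the other 4 tumors. The ratio of ETV4 to ETV5 moved little, from 2.07 in WCE replicate 2 to 2.42 in vehicle replicate 1.

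**Figure D3:**
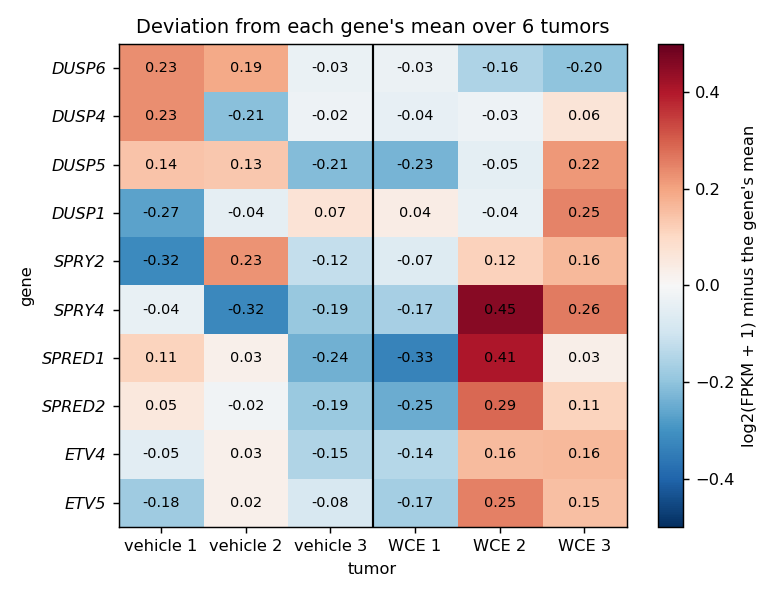
Deviation of each feedback gene (rows) from its own mean over the 6 tumors (columns), in log2(FPKM + 1); red is above and blue below the mean, and the vertical line divides the groups. SPRY4 is at 0.45 and 0.26 in WCE replicates 2 and 3 where DUSP6 is at −0.16 and −0.20, and the columns of vehicle replicate 3 and WCE replicate 1 are nearly alike.

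Once the near copies, vehicle replicate 3 and WCE replicate 1, were removed, 8 of the 10 genes had a log2 change above 0, and 2, DUSP6 and SPRY4, had an unadjusted p under 0.05 by limma, beside 18.4% of all entries in that comparison. The number with an adjusted p under 0.05 was 0, where 0.0376% of all entries had one, and the lowest was 0.195. In 5 genes (DUSP1, SPRY4, SPRED2, ETV4 and ETV5) both remaining WCE-treated tumors were above both vehicle-treated ones, and in 1, DUSP6, both were below. Over all entries these shares were 25.7% and 27.8%.

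Of 11 other members of the same families, 10 were tested and 0 were called in either direction at an unadjusted p under 0.05 by limma, beside 7.1% of all entries, with a median log2 change of 0.061. Without the near copies 2 of the 10 were called higher, SPRY1 and ETV1, beside the 18.4% of all entries, and 0 at an adjusted p under 0.05. SPRY1, another Sprouty, was at 13.7, 18.6 and 11.7 FPKM in vehicle-treated tumors and 13.1, 24.4 and 20.4 FPKM in those given WCE, with a log2 change of 0.36 (unadjusted p = 0.176 by limma) that was 0.46 without the near copies (unadjusted p = 0.0499 by limma). ETV1, the third factor of the ETV4 and ETV5 group, had a log2 change of 0.19, or 0.29 without them (unadjusted p = 0.0466 by limma), and DUSP7, a cytoplasmic phosphatase of ERK close to DUSP6, one of 0.12. SPRY3 was listed at 0 in all tumors.

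Of 20 other genes commonly read as output of ERK, 3 had an unadjusted p under 0.05 by limma, 2 higher and 1 lower, or 15.0% beside 7.1% over all entries, and 0 an adjusted one. IER3, an immediate early gene that ERK also phosphorylates, was at 247, 244 and 210 FPKM in vehicle-treated tumors and 210, 148 and 146 FPKM in those given WCE. The groups did not overlap, but vehicle replicate 3 and WCE replicate 1 were level, and the log2 change was −0.49 (unadjusted p = 0.0161 by limma), or −0.73 without both (unadjusted p = 0.00065 and adjusted p = 0.173 by limma). The 2 higher genes were HMGA2, a chromatin factor, with a log2 change of 0.43, and MCL1, a survival factor of the BCL2 family, with one of 0.54. MCL1 was at 99.9, 128 and 129 FPKM against 126, 209 and 192 FPKM, so WCE replicates 2 and 3 were again the high tumors. Both stood above vehicle replicates 1 and 2 in 25.7% of all entries. Without the near copies the log2 change was 0.82 for MCL1 and 0.66 for HMGA2, and 3 of the 20 genes were called, 15.0% beside 18.4% of all entries, 0 of them at an adjusted p under 0.05. The median log2 change of the list was 0.11 with all tumors and 0.17 without the near copies.

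The cascade itself was close to level. Of 28 genes from adaptors to ERK and its regulators, 26 were tested, 1 was higher and 1 lower at an unadjusted p under 0.05 by limma (7.69%, beside the 7.1% of all entries), 0 at an adjusted one, and the median log2 change was 0.016. RPS6KA1, a kinase that ERK activates, was at 26.2, 27.5 and 25.6 FPKM in vehicle-treated tumors and 28.7, 35.7 and 32.1 FPKM in those given WCE, a log2 change of 0.27. HRAS, a RAS isoform, was at 74.4, 64.2 and 59.6 FPKM against 60.1, 47.7 and 52.8 FPKM, a log2 change of −0.30. MAPK3, which encodes ERK1, had a log2 change of 0.24 (unadjusted p = 0.0550 by limma), or 0.35 without the near copies (unadjusted p = 0.0208 by limma). Without them 3 of the 26 genes were called higher and 1 lower, 15.4% beside 18.4% of all entries, with 0 at an adjusted p under 0.05.

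Of 14 receptor tyrosine kinases, 9 were tested, and 1, FGFR1, had an unadjusted p under 0.05 by limma (11.1%, beside the 7.1% of all entries), with 0 at an adjusted one. Without the near copies 2 of the 9, FGFR1 and PDGFRA, were called higher, 22.2% beside 18.4%, with 0 at an adjusted one. FGFR1, which signals strongly through ERK, was at 3.28, 5.71 and 7.35 FPKM in vehicle-treated tumors and 7.65, 9.54 and 10.5 FPKM in those given WCE. The groups did not overlap, as in 12.8% of all entries, with vehicle replicate 3 and WCE replicate 1 again side by side at the border, and the log2 change was 0.71 ± 0.24 (standard error), with an unadjusted p of 0.0201 and an adjusted p of 0.623 by limma. It was 1.04 without the near copies (unadjusted p = 0.00627 by limma). PDGFRA, the receptor for platelet-derived growth factor, was at 11.0, 7.87 and 3.97 FPKM against 4.02, 32.6 and 20.7 FPKM, with WCE replicates 2 and 3 high and a log2 change of 0.93 (unadjusted p = 0.203 by limma). Without the near copies its log2 change was 1.39 (95% interval 0.73 to 2.05, unadjusted p = 0.00277 and adjusted p = 0.174 by limma). MET, the receptor for hepatocyte growth factor, had a log2 change of −0.16 (unadjusted p = 0.241 by limma).

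**Figure D4:**
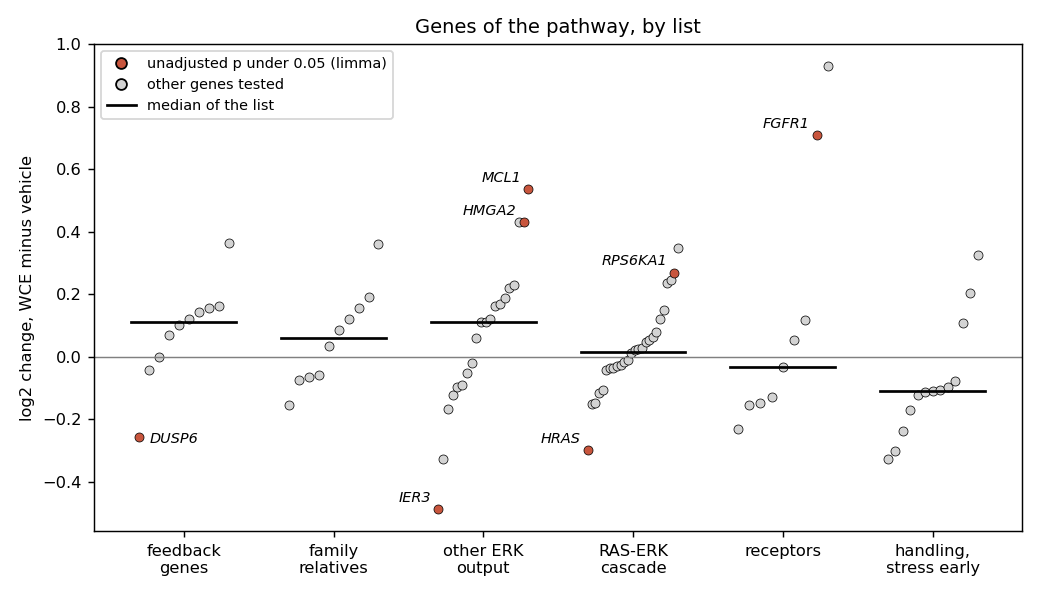
Log2 change, WCE-treated minus vehicle-treated tumors, of each tested gene in 6 lists of the pathway; red points have an unadjusted p under 0.05 by limma, grey points do not, and bars are list medians. The feedback genes have a median of 0.11 with DUSP6 as the 1 red point, and the RAS-ERK cascade has a median of 0.016.

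DUSP1 and some ERK targets also respond to tissue handling and stress. Of 14 early response and heat shock genes, 2 of which (FOS and EGR1) are also in the list of ERK output, 13 were tested and 0 had an unadjusted p under 0.05 by limma, beside the 7.1% of all entries, with 10 below 0, where 51.4% of all entries were, and a median log2 change of −0.11. Without the near copies 3 were called, ATF3 and HSPA1B lower and JUN higher, 23.1% beside 18.4% of all entries, with 0 at an adjusted p under 0.05. The lowest p was that of ATF3, a stress-induced factor, at 22.1, 24.1 and 20.8 FPKM against 20.4, 14.7 and 19.0 FPKM (unadjusted p = 0.0580 by limma, and 0.0321 without the near copies). HSPA1B, a heat shock chaperone, had a log2 change of −0.24 (−0.36 without the near copies, unadjusted p = 0.0322 by limma) and JUN, a partner of FOS, one of 0.32 (0.48 without them, unadjusted p = 0.0182 by limma).

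Markers of PC-3 cells were abundant, with a summed level of 6 epithelial and tumor genes from 1480 to 1860 FPKM in vehicle-treated and from 1640 to 1780 FPKM in WCE-treated tumors. Of the 6, 3 had a log2 change above 0 and 3 below. The groups did not overlap in 2, the adhesion genes EPCAM (−0.73) and CDH1 (−0.47), both lower under WCE, beside 12.8% of all entries. VIM, the filament protein vimentin, had a log2 change of 0.41. The keratins KRT18, KRT8 and KRT19 had 0.10, 0.050 and −0.014. The endothelial, fibroblast, myeloid and erythroid markers are human gene entries, while the host of these xenografts was the mouse. Their sums therefore cannot be read as amounts of host cells. The 8 endothelial markers summed to 4.05 to 5.69 FPKM under vehicle and to 5.34, 10.1 and 13.0 FPKM in WCE replicates 1 to 3. This sum was thus high in the same tumors as SPRY4. Of the 4 genes tested, 2 (KDR and TIE1) were called higher at an unadjusted p under 0.05 by limma, beside 3.78% of all entries. Without the near copies 3 of 4 were, ENG being added, beside 18.4% of all entries called in either direction. In both comparisons 0 had an adjusted p under 0.05. KDR, TIE1 and ENG were highest in WCE replicates 2 and 3, KDR at 1.59 and 5.12 FPKM. PECAM1 was not, at 0.860, 2.95 and 2.61 FPKM under vehicle against 2.48, 2.05 and 2.37 FPKM under WCE. The defining endothelial genes CDH5, TEK, VWF and EMCN were under 0.1 FPKM in every tumor. Both the endothelial sum and SPRY4 were highest in WCE replicates 2 and 3, though in the opposite order, and any link between them was not tested. The 8 fibroblast markers summed to 44.5 to 60.6 FPKM in vehicle-treated and 14.4 to 60.0 FPKM in WCE-treated tumors, lowest in WCE replicate 2. Most of this sum was COL1A1 in every tumor, and 3 of the 8 (COL1A2, DCN and PDGFRB) stayed under 1 FPKM in every tumor. The 9 myeloid markers summed to 367 to 1600 FPKM and 582 to 1590 FPKM, nearly all of it S100A8, S100A9 and CD68, while 6 of the 9 stayed under 1 FPKM in every tumor. All 4 erythroid markers stayed under 1 FPKM.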

How the data were processed

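The members, gene lists and alternatives were chosen with earlier results of these data known. The authors deposited FPKM values, 1 column per tumor and 24000 gene entries, laid out as Cufflinks writes its gene table and made from stranded polyadenylated RNA libraries. The submitters' processing notes name TopHat2 2.0.13, Cufflinks and the builds hg19 and mm10 without roles. How reads of the mouse host were separated from human reads, and any scaling between tumors, are not given in the sources used here, so host reads could add to human genes. Read counts were not analysed here, absolute depth is unknown, and no counting intervals are given. Relative depth came from the commonest ratio of low FPKM values, each step of which is 1 read. Table starts were shifted to count from 1.

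The descriptions in the labels gave the tumor of each column. Values were taken to log2(FPKM + 1), entries with a mean of at least 0.5 FPKM were kept (13287), and limma 3.58.1 (R 4.3.3) compared the groups, two-sided, with its trend option and no covariates. Fits were tested on simulated data with independent tumors, which do not cover the near copies found here. Exact permutation tests used scipy 1.17.1 under Python 3.11.15. Genes named are the 10 members and, from each other list, those with an unadjusted p under 0.05 or the 3 lowest p; SPRY3 and the marker genes were named after their values were seen. Alternatives were the pseudocount, filter, scaling, trend, moderation, weights, a replicate block and tumors left out, and for the other gene lists leaving out vehicle replicate 3 and WCE replicate 1, chosen after seeing the data. P-values set the group difference against the spread between these tumors, which limma estimates with help from the other entries. They take all libraries as independent, although vehicle replicate 3 and WCE replicate 1 were near copies.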

Additional observations from a re-analysis of the deposited data

How the results depend on the processing

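Over the 17 alternatives, 0 of the 10 feedback genes reached an adjusted p under 0.05 by limma, the lowest being 0.126. DUSP6 stayed below 0 and DUSP1, SPRY2, SPRY4, ETV4 and ETV5 above 0 in each of them, and the median log2 change of the 10 genes ranged from 0.040 to 0.22.

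The count of feedback genes with an unadjusted p under 0.05 was 1 as designed, 0 without the mean-variance trend and with the unmoderated test, 2 with array weights and 2 without vehicle replicate 3 and WCE replicate 1 (DUSP6 and SPRY4 in both), and 0 to 3 with 1 tumor left out, the 3 (DUSP6, SPRY4 and ETV5) without WCE replicate 1. With quantile normalization the 1 gene was SPRY4. Over all entries the unadjusted count, 944 as designed, was 593 with the unmoderated test, 3201 with array weights, 2449 without both near copies, and 219 to 2033 with 1 tumor left out, over 1.5 times higher without vehicle replicate 3 (1771) or WCE replicate 1 (2033) and lower by as much without any other. The adjusted count, 1 as designed, was 0 with no filter, where 1051 entries had an unadjusted p under 0.05, 0 with the unmoderated test, 5 without both near copies, and 1 to 7 with 1 tumor left out.

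DUSP4 turned above 0 with median-ratio scaling (5.9e-05), upper-quartile scaling (0.0091), quantile normalization (0.044), array weights (0.12) and without both near copies (0.0072), and DUSP5 with quantile normalization (0.0069) and array weights (0.096). With 1 tumor left out the log2 change ranged from −0.10 to 0.12 for DUSP4, −0.16 to 0.064 for DUSP5, −0.12 to 0.25 for SPRED1, −0.018 to 0.25 for SPRED2, 0.069 (without vehicle replicate 1) to 0.24 for DUSP1, 0.018 (without vehicle replicate 1) to 0.29 (without vehicle replicate 2) for SPRY2, 0.23 (without WCE replicate 2) to 0.54 for SPRY4, 0.067 (without WCE replicate 3) to 0.22 (without WCE replicate 1) for ETV4, 0.068 (without WCE replicate 2) to 0.28 (without WCE replicate 1) for ETV5 and −0.34 to −0.21 for DUSP6. The cause was not tested.

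Pairing the tumors by number, as a replicate block, left 1 feedback gene (DUSP6, −0.26) and 1049 entries with an unadjusted p under 0.05 and 1 with an adjusted one. The deviations of same-numbered tumors correlated from −0.241 to 0.16, and those of different-numbered ones from −0.327 to 0.363. The highest was that of the near copies. Deviations from a group mean sum to 0 within each group of 3 tumors, so these correlations cannot decide whether the tumors were paired. Depth was lowest in WCE replicate 1, at 25.0% of that of vehicle replicate 3.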
